A study of Mus musculus with 18 samples.

Results

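The 3' untranslated region (3'UTR) of MRTF-A was used as a bait for the miRNAs of undifferentiated C2C12 myoblasts, and what it held was compared with what an MS2 control held. The comparison took 6 of the 18 libraries of the series, 3 eluates of the MRTF-A bait and 3 of the MS2 control, chosen by their labels, and all 2042 miRNA names of the deposited table were carried through it. C2C12 is a mouse myoblast cell line, here in medium with 10% fetal calf serum and not yet in the 2% horse serum that brings on differentiation. The labels give the same serum text for all 18 samples, so the state was read from titles and characteristics. The labels name no species or sequence for the bait and no genotype beyond the line. The other libraries are 3 inputs of the same state, used for levels only, and the 3 bait, 3 control and 3 input libraries of cells after 7 days of differentiation, of which the 6 eluates enter the fit. Whether the 3 libraries of a group stem from separate cultures is not in the labels, so a p-value here speaks only of how far these libraries differ among themselves, and that may be technical spread. In each group, A is the library whose column has no suffix, B that with suffix 1 and C that with suffix 2.

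MRTF-A, encoded by Mrtfa, is a coactivator of serum response factor that moves into the nucleus when actin polymerises and drives genes of the cytoskeleton and of muscle. A miRNA is a short RNA cut from a hairpin, of which either arm can be loaded into an Argonaute protein, and it finds its targets mainly by pairing of its bases 2 to 8, the seed, with the 3'UTR of an mRNA. In miTRAP a bait RNA with MS2 hairpins is held on a resin by the MS2 coat protein, cell extract is passed over it, and the small RNA that stays is eluted and sequenced.

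Bait libraries held 107165 to 352674 reads, control libraries 20525 to 39695 and undifferentiated inputs 294112 to 860828, so 1 read was worth 8.31 to 15.3 CPM in bait libraries and 11.9 to 32.8 CPM in control libraries. CPM here is the deposited normalised value, reads per effective library size. That size was below the read total in the bait libraries (factors 0.341 to 0.609) and above it in the control (1.48 to 2.12), so the CPM of a bait library sum to more than those of a control library. MS2 library A stood apart from the other control libraries, with 0.765% of reads on human-named miRNAs against 0.111% and 0.115% in B and C. Library A also had the highest such share of the inputs (0.106%). Among bait libraries the share was 0.00187% in A, but from only 2 reads, against 4 in B and 1 in C. The part of depth and of that library in the calls below was not tested, beyond the fits without it. In the eluates the 6 blood markers had 0 reads and the 6 epithelial markers 0 to 2 reads in each library. The 4 endothelial and smooth muscle markers had 86 to 142 reads in bait libraries and 68 to 128 in control libraries, nearly all of miR-143-3p. In the myoblast input miR-1a-3p, a miRNA of differentiated muscle, had 0 reads, as did miR-208b-3p and miR-499-5p, while miR-206-3p, a skeletal muscle miRNA, had 152 and miR-133a-3p had 725.

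The sequences below are those of miRNAs that the differences turn on, and capitals mark the seed, bases 2 to 8. They are mature sequences from RefSeq (GRCm38.p6), which held 137 of the 169 names tested. The first is the miRNA that took most bait reads, at chr4:88910614-88910635 on the minus strand, in Mir31.
miR-31-5p: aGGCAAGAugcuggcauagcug
The next share the seed GGCAGUG of the miR-34 and miR-449 family and were all higher with the bait.
miR-34a-5p: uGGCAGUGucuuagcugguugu
miR-34b-5p: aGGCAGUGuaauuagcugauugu
miR-449a-5p: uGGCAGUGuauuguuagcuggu
The let-7 guides share GAGGUAG. let-7g-5p lay highest of them and let-7d-5p lowest.
let-7g-5p: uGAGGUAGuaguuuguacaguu
let-7b-5p: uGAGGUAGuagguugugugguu
let-7d-5p: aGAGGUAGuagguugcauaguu
The miR-130 and miR-301 family shares AGUGCAA.
miR-130a-3p: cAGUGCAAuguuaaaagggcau
miR-130b-3p: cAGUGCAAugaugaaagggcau
miR-301a-3p: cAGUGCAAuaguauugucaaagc
The arms of the miR-199a hairpin are shown because 1 was higher and the other lower.
miR-199a-5p: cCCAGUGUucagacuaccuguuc
miR-199a-3p: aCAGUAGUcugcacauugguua
The last are the main miRNAs that were lower with the bait. miR-615-3p lies at chr15:103014969-103014990 on the plus strand, in Mir615, and miR-99a-5p at chr16:77598940-77598961 on the plus strand, in Mir99a.
miR-615-3p: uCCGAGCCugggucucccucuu
miR-423-3p: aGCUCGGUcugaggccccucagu
miR-99a-5p: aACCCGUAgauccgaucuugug

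miR-31-5p, which holds back Myf5 protein in resting muscle stem cells, filled the bait eluates. It took 52.8%, 66.5% and 61.5% of the reads of bait libraries A, B and C, against 0.524 ± 0.142% (SD, n = 3) of the control and 0.547% to 0.600% of the input. In normalised CPM it stood at 867195, 1948995 and 1093394 with the bait and at 4595, 2279 and 2113 with the control. The lowest bait library was thus far above the highest control library, and the groups did not overlap. The log2 difference of bait minus control on the log2(CPM + 10) scale was 8.77 ± 0.41 (standard error), with adjusted p = 4.79e-09 in limma over all 169 names tested. With CPM scaled to library totals in place of the effective sizes it was 6.87.

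**Figure D1:**
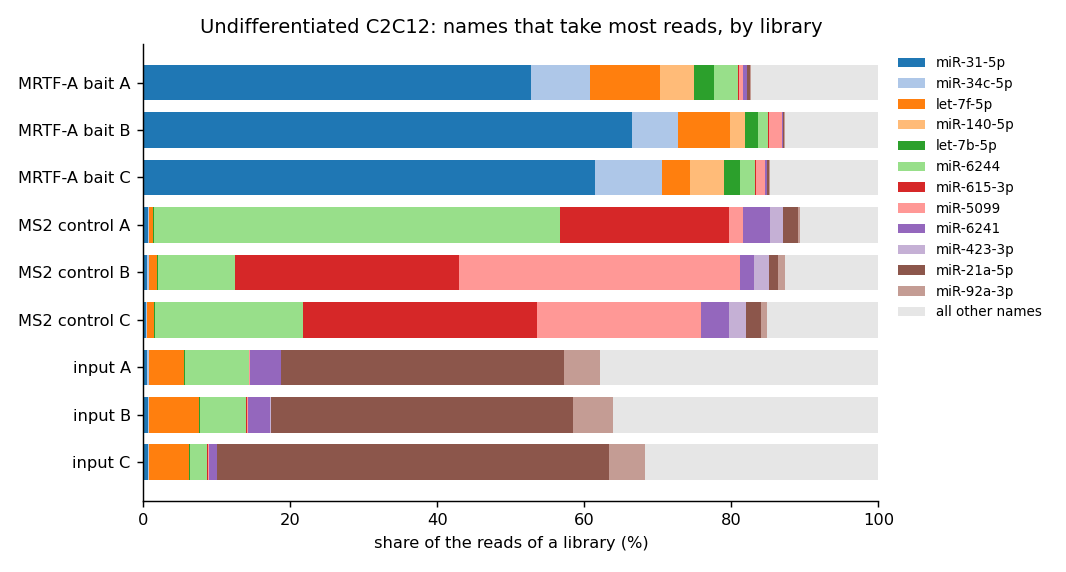
Share of the reads of each undifferentiated library (horizontal axis, %) taken by the 5 most abundant names of the bait, control and input groups, with all other names in grey. miR-31-5p takes 52.8% to 66.5% of the bait libraries, miR-615-3p 22.9% to 31.9% of the control libraries and miR-21a-5p 38.5% to 53.3% of the input.

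Of 169 tested names, 102 (60.4%) differed between bait and control, 73 higher (43.2%) and 29 lower (17.2%), around a median log2 difference of 1.16 over all tested names. With the names that had 0 reads in a group placed at their bound of 3 reads per library, or at 0 where the other group did not exceed that floor, the median was 0.52. Scaling to library totals in place of the effective sizes moved the median to -0.25 and the split to 55 higher (32.5%) and 63 lower (37.3%). Differences near 1 on the log2 scale therefore lie close to the bulk of the names, and where library totals change a sign or end a call of a name below, that value is given. Large rises that kept their call were also smaller with library totals. For miR-140-5p the value was 6.89 in place of 8.73, for miR-34c-5p 5.81 in place of 7.70 and for let-7b-5p 3.66 in place of 5.55. The size of a rise given below thus depends on the scaling. Groups did not overlap in 110 of the 169 names (65.1%). These 169 passed a filter on low reads in the 12 eluates of both states, and 122 of them also passed in the 6 undifferentiated eluates alone. Of those 122, 64 were higher and 19 lower, with a median of 2.10, or 0.34 with library totals. The background shares and the median of 1.16 given below are those of all 169, which lie lower for higher names. Of the 22 names with no control read in myoblasts, 17 were higher and none could be lower, so they are given with read counts and bounds.

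**Figure D2:**
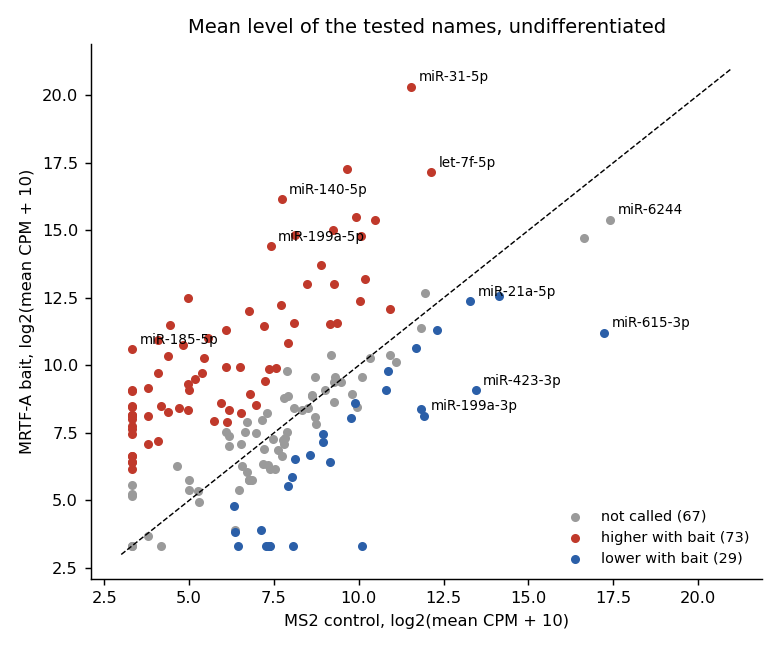
Mean level of the 169 tested names in the MS2 control (horizontal) and with the MRTF-A bait (vertical), both as log2(mean CPM + 10), with the line of equal level. Red marks the 73 names higher with the bait, blue the 29 lower and grey the 67 not called, and miR-31-5p lies farthest above the line.

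The miR-34 and miR-449 family, which p53 and multiciliated cells are known to use, was higher in all 4 of its tested names (background 43.2%), with a median of 6.57, or 6.41 with miR-449a-5p at its bound, against 1.16 over all tested names. miR-34c-5p led it, at 130364, 180405 and 160340.2 CPM with the bait against 427, 1128 and 832 with the control, and 1659 ± 380.2 in the input (SD, n = 3). Every bait library was over the highest control library, and the difference was 7.70 ± 0.37 (limma adjusted p = 5.09e-09). miR-34a-5p was at 1334, 2808 and 2054 CPM with the bait and at 32.8, 35.6 and 42.7 with the control, from 6 control reads in all, a difference of 5.40 ± 0.39 (limma adjusted p = 1.24e-07). Both names thus kept their groups apart in each library.

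The rarer members of that family rested on few control reads. miR-34b-5p had 160, 316 and 282 bait reads and 0, 3 and 0 control reads, a ratio of 154 (95% counting interval 52.5 to 749). Without MS2 library B it had no control read at all. Bait reads of miR-449a-5p numbered 28, 69 and 45, control reads 0 and input reads 1 in all, which puts it at least 7.92-fold over the control. Such intervals and bounds cover counting error only. Ratios and bounds rest on the effective sizes and were not computed with library totals. With those, bait over control would be smaller, and a low bound may not hold. miR-449c-5p, at 71 bait and 0 control reads, and miR-449b, at 2 and 0, did not pass the filter.

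**Figure D3:**
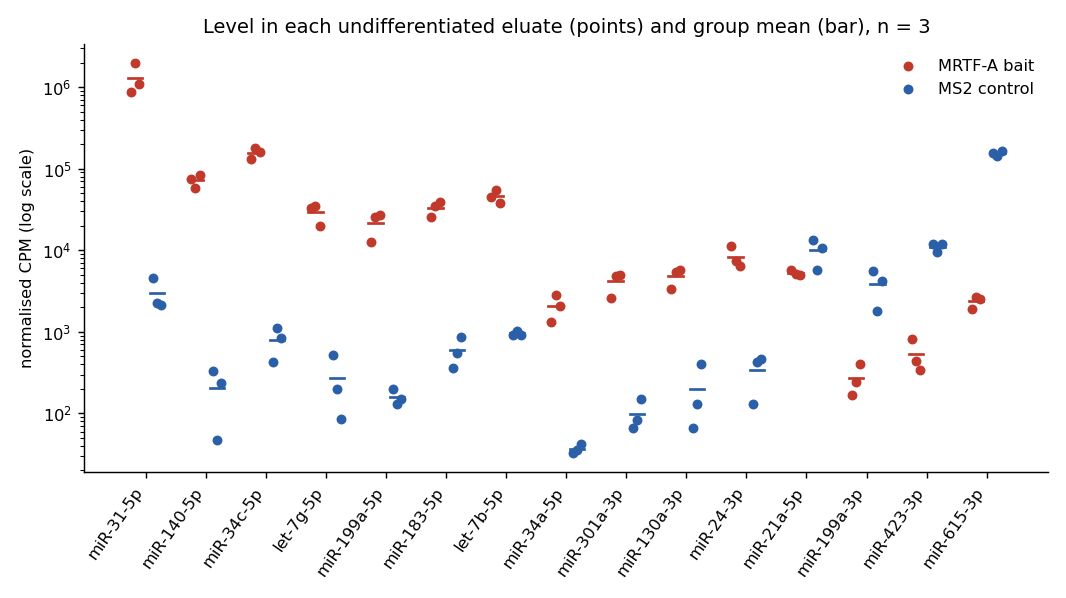
Normalised CPM (vertical, log scale) of 15 names in each of the 3 bait (red) and 3 control (blue) libraries, with a bar at the group mean. The bait points of miR-31-5p, miR-140-5p and miR-34c-5p lie far above their control points, those of miR-615-3p, miR-423-3p and miR-199a-3p far below, and those of miR-21a-5p meet the control points.

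The let-7 family, whose members hold back growth and mark differentiated cells, was higher in 7 of its 9 tested guides (background 43.2%), with a median of 4.75. let-7f-5p was the most abundant, at 157439, 210369.7 and 67756 CPM with the bait against 3873, 5116 and 4461 with the control (4.87 ± 0.39, limma adjusted p = 2.71e-07). let-7b-5p was at 45458, 54547 and 37583 CPM against 919, 1033 and 918 (5.55 ± 0.32, limma adjusted p = 2.76e-08). Bait library C was the lowest of the bait libraries for both, and the groups did not overlap for either.

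let-7g-5p showed the largest difference of the family, 7.01 ± 0.57, with 33055, 35124 and 19951 CPM against 525, 202 and 85.4. Its control libraries rested on 16, 17 and 4 reads, and the difference was 7.65 without MS2 library A and 6.40 without MS2 library C. let-7c-5p (4.89), let-7a-5p (4.75), let-7i-5p (3.71) and let-7e-5p (3.04) were also higher. The range within 1 seed was wide. miR-98-5p was at 2.15 ± 0.90 (limma adjusted p = 0.0555), and at 2.70 with adjusted p = 0.0300 without MS2 library C.

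let-7d-5p, with the seed of the others, did not pass the test. It was at 6332, 8856 and 4462 CPM with the bait and at 4004, 4665 and 3245 with the control, so that bait library C lay within the control range. The difference was 0.68 ± 0.33 (limma adjusted p = 0.0879), and 0.93 with adjusted p = 0.0322 without bait library C, while with library totals it was -1.21, on the other side of 0, and passed (adjusted p = 0.0280). Against 1301 ± 539 CPM in the input, its control level was the higher one, unlike those of let-7f-5p and let-7g-5p, whose inputs were at 62776 ± 18116 and 9735 ± 3189. let-7j, which has another seed, was higher as well (4.66 ± 0.38, limma adjusted p = 2.82e-07).

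**Figure D4:**
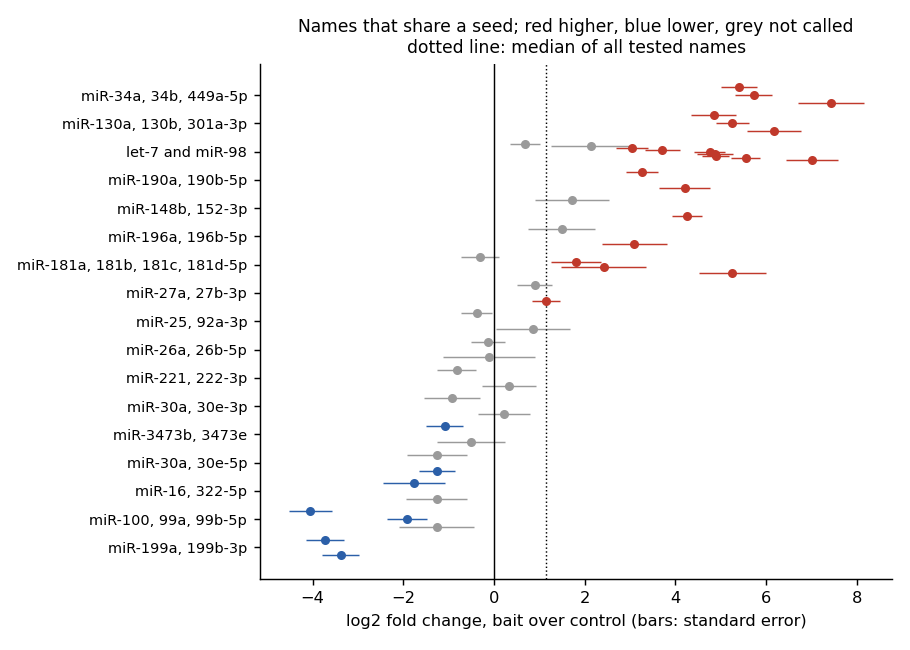
Log2 difference of bait over control (horizontal, bars are standard errors) of tested names in rows of names that share a seed, red higher, blue lower and grey not called, with the median of all tested names dotted at 1.16. The miR-34 and miR-130 rows lie wholly to the right, the miR-199 row wholly to the left, and the let-7 row runs from 0.68 to 7.01.

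Of 17 seeds shared by 2 or more tested names, 46 names in all, 3 had every name higher and 1 had every name lower. In 4 no name was called, and none held both a higher and a lower name (background 43.2% higher and 17.2% lower). Many of these seeds held only 2 names, no test of agreement within a seed was made, and nothing is read from the counts. The miR-130 and miR-301 family, chosen for description after its values were seen, was higher in all 3 names with a sequence, and miR-301b-3p, for which none was at hand, was higher as well with 76 bait and 0 control reads (at least 4.06-fold). miR-301a-3p was at 2576, 4827 and 5029 CPM against 65.6, 83.1 and 149 (5.26 ± 0.37, limma adjusted p = 1.10e-07), and its input level was only 62.4 ± 22.6. miR-130a-3p was at 3312, 5416 and 5772 CPM against 65.6, 131 and 406 (4.84 ± 0.49, limma adjusted p = 2.12e-06), or 5.51 without MS2 library C. For miR-130b-3p, with 497 bait and 3 control reads, bait over control was 101 (95% counting interval 34.4 to 492), or 215 without MS2 library C. All 3 bait libraries exceeded all 3 control libraries for each of these names.

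miR-190a-5p and miR-190b-5p made up the other seed with every name higher. The former had 1 control read, and bait over control came to 50.6 (95% counting interval 8.84 to 2023), 24.2 without MS2 library B. The latter had 23 bait and 0 control reads, at least 1.36-fold over the control on the effective sizes, which may not hold with library totals. In the miR-181 seed 3 of 4 names were higher, of which miR-181a-5p (0.02) and miR-181d-5p (0.80) did not pass with library totals. miR-181b-5p, with 0, 8 and 0 control reads, was at 5.25 ± 0.73, or 6.38 without MS2 library B. The seed with every name lower was that of miR-199a-3p and miR-199b-3p, which have 1 mature sequence under 2 names and count as 1 measurement.

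Other large rises lay outside these seed groups, miR-140-5p and miR-185-5p only because no sequence was at hand for them. The cartilage miRNA miR-140-5p stood at 75186, 57479 and 84317 CPM against 328, 47.5 and 235 (8.73 ± 0.52, limma adjusted p = 3.13e-08), or 7.96 without MS2 library B, and its input level was 86.7 ± 16.8. miR-183-5p, of a cluster active in sensory cells, was at 25389, 34526 and 39297 CPM against 361, 558 and 854 (5.84 ± 0.47, limma adjusted p = 2.66e-07). Groups were apart for both. A few rested on control library C alone. For miR-374b-5p bait reads were 89, 293 and 166 and control reads 0, 0 and 1, and the ratio was 334, falling to 160 without MS2 library B. For miR-3103-3p bait reads were 378, 1110 and 195 and control reads 0, 0 and 3, and the ratio was 342, with 213 when bait library B was left out and 164 when MS2 library B was. Without MS2 library C neither had a control read. Their 95% counting intervals ran from 59.7 to 13223 and from 117 to 1661. miR-185-5p had no control read beside 48, 235 and 154 bait reads, a bound of 23.4-fold. miR-28a-5p was at 5.96 ± 0.84, or 6.92 without MS2 library B and 4.96 without C.

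Both arms of a hairpin were tested in 18 cases. In 2 both arms were higher and in 1, a human name with 0 bait reads, both were lower. In 1 the 5p arm was higher and the 3p arm lower, and in 1 the reverse. In 9 only 1 arm was called and in 4 neither was. Over all tested names 60.4% were called, so nothing is read from these counts. The 5p arm had the larger value in 12, among them miR-133a, whose 5p arm had 0 reads in these eluates. miR-199a-5p was at 12709.8, 25570.3 and 26719 CPM with the bait and at 197, 131 and 149 with the control (6.95 ± 0.31, limma adjusted p = 4.79e-09). miR-199a-3p, from the other arm, was at 169, 241 and 403 CPM with the bait and at 5546, 1792 and 4248 with the control (-3.72 ± 0.43, limma adjusted p = 5.92e-06). Each control library was far above each bait library. In the input the order was that of the control, with 724 ± 286 CPM for the 5p and 6855 ± 1952 for the 3p arm.

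miR-140 showed the same kind of gap. Its 3p arm was at 445, 399 and 315 CPM with the bait and at 624, 522 and 662 with the control (-0.64 ± 0.40, limma adjusted p = 0.181, and -2.48 with library totals, which passed), while the 5p arm had one of the largest rises. The 3p arm was the abundant one in the input, at 8588 ± 1558 CPM. The reverse was seen in miR-378a, a hairpin encoded in Ppargc1b. miR-378a-3p was at 7374, 5325 and 3390.3 CPM with the bait and at 1149, 712 and 1238 with the control (2.33 ± 0.37, limma adjusted p = 0.000116), which did not pass with library totals, at 0.45. miR-378a-5p had 1, 0 and 0 bait reads and 3, 15 and 5 control reads, so control over bait was 37.7 (95% counting interval 6.12 to 1554), 20.6 without bait library B, and without A no bait read was left.

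Among the 29 names that were lower with the bait, miR-615-3p, from a hairpin within Hoxc5, took most control reads. It was at 1916, 2650.1 and 2546 CPM with the bait and at 154347, 143625 and 165833 with the control (-6.03 ± 0.45, limma adjusted p = 1.68e-07). The input held only 371 ± 105 CPM of it, less than either eluate. miR-423-3p was at 813, 440.3 and 340.3 CPM with the bait against control levels of 11880.4, 9508 and 11975 (-4.45 ± 0.35, limma adjusted p = 2.60e-07), and the input held 546 ± 256 CPM. For both the control libraries were close together and all far above the bait libraries.

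miR-99a-5p, of the miR-99 and miR-100 family, had 0 bait reads and 5, 15 and 6 control reads, at least 4.32-fold lower with the bait. miR-99b-5p of the same seed was at 215, 498 and 895 CPM with the bait against 2035, 1507 and 1793 with the control (-1.92 ± 0.44, limma adjusted p = 0.00220), and miR-100-5p was at -1.27 (limma adjusted p = 0.195). miR-676-3p had 0 bait reads and was at least 3.97-fold lower, a bound that was 5.50 without MS2 library A and 2.42 without C. miR-1195 was at -3.01 ± 0.64, or -2.30 without bait library A.

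miR-21a-5p, abundant in many dividing cells, took 38.5%, 41.1% and 53.3% of the input but little of the eluates. It was at 5795, 5092 and 5016 CPM with the bait and at 13390.0, 5721 and 10737 with the control, so the highest bait library reached into the control range. The difference was -0.82 ± 0.30 (limma adjusted p = 0.0339), and adjusted p rose to between 0.0682 and 0.126 without bait library B or C or MS2 library A or C. Of other abundant input miRNAs, miR-92a-3p of the miR-17~92 cluster was at -0.38 ± 0.35 (limma adjusted p = 0.342) and miR-143-3p of smooth muscle at -0.50 ± 0.25 (limma adjusted p = 0.0971), and with library totals they were at -2.27 and -2.39, both of which passed. Without MS2 library B miR-143-3p was at -0.66 with adjusted p = 0.0450.

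The names that led the control with miR-615-3p varied from library to library. miR-6244 took 55.2%, 10.5% and 20.0% of control libraries A, B and C, and was at -1.54 ± 0.68 (limma adjusted p = 0.0655), or -2.21 with adjusted p = 0.00982 without MS2 library B. miR-5099 took 1.89%, 38.3% and 22.2%, and was at -1.65 ± 1.06 (limma adjusted p = 0.187), or -2.81 with adjusted p = 0.0232 without MS2 library A. With library totals both passed, at -3.44 and -3.54. The 5 human names tested had 0 bait reads, so none could be higher, and all were called lower (background 17.2%). They passed the filter through the control, and nothing is read from their count. Most of their control reads were in MS2 library A, as 81 of 121 reads of hsa-miR-6509-3p, and only that name kept its call in every fit without 1 library. It was at least 29.9-fold lower, or 8.12-fold without MS2 library A.

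The tested muscle miRNAs were higher or not called. miR-206-3p had 112, 52 and 28 bait reads and 0, 0 and 1 control reads, and bait over control was 117 (95% counting interval 20.8 to 4648). That value was 64.7 without bait library A and 56.0 without MS2 library B, and without MS2 library C no control read was left. miR-24-3p, which is not of the muscle list and slows the cell cycle in differentiating cells, was at 11161, 7369 and 6453 CPM against 131, 427 and 469.6 (4.71 ± 0.43, limma adjusted p = 7.55e-07). Both had all bait libraries above all control libraries. miR-486-5p (2.25 ± 0.41) and miR-3107-5p (2.08 ± 0.37), 1 mature sequence under 2 names, were higher, though not with library totals (0.37 and 0.20). miR-1a-3p had 10 bait and 2 control reads, and bait over control was 3.05 (95% counting interval 0.65 to 28.6). Both control reads were in MS2 library A, without which adjusted p was 0.00194. In the same list miR-133a-3p was at -0.59 ± 0.82 (limma adjusted p = 0.557).

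Of the 7 tested names of the muscle list 3 were higher and none lower (background 43.2% and 17.2%), with a median of 1.22, and with library totals 1 was higher, with a median of 0.20. The higher names include the sequence counted under 2 names, and miR-133a-5p, also tested, had 0 reads in these 6 eluates. Of the miR-23, miR-27 and miR-24 clusters 3 of 6 were higher, with a median of 1.02, or -0.85 with library totals, under which miR-27b-3p (1.15 ± 0.31) was at -0.74 and miR-27a-5p (2.17) no longer passed, at 0.51. In the miR-30 family 1 of 3 was lower, miR-30a-5p at -1.25 ± 0.40, which lost its call without MS2 library C, while with library totals all 3 were lower (median -2.95). In the miR-15 and miR-16 family 1 of 2 was lower, miR-322-5p at -1.77, which lost its call without bait library B or C or MS2 library A or C, while with library totals both were lower. Of the miR-17~92 cluster and its paralogs 2 were tested and neither was called, while with library totals 1 was lower. Of 12 miRNAs of mesenchymal cells 4 were higher and 3 lower, with a median of 0.48. With library totals 3 were higher and 6 lower, with a median of -1.21. Among the lower names the single miR-199 sequence counts under 2 names, and the list holds the miR-199a, miR-140 and miR-615 names given above. miR-214-3p was higher at 5.11 ± 0.77, or 4.26 without MS2 library C and 5.72 without A. miR-196a-5p was higher at 3.09 ± 0.72, or 2.25 without MS2 library B and 3.94 without C, and did not pass with library totals (1.32). The imprinted Dlk1-Dio3 locus had 0 of 30 names tested.

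Seed matches were searched in the mouse Mrtfa 3'UTR, as the sources used here do not give the bait's own sequence. The longest annotated one in GENCODE vM21 (GRCm38) is chr15:81012281-81013287 on the minus strand, 1007 bases with 51.9% G and C. Each seed was searched on the transcript strand only, as the complement of bases 2 to 8 (7mer-m8), of bases 2 to 7 followed by A (7mer-A1), or as both together (8mer). Of the 137 names with a sequence, 22 had a match, 23 in all. The 32 tested names without a sequence were not searched, so whether they have a match is not known here. Among them are miR-1a-3p, miR-34c-5p, miR-140-5p, miR-185-5p and miR-486-5p. The following stretches of the 3'UTR, in the transcript's direction and as DNA, are shown because they hold matches of miRNAs described here, and capitals mark the match.
miR-31-5p match, chr15:81012281-81012287: taaaacaaaaacactgaCTTGCCA
miR-374b-5p match, chr15:81012814-81012820: gtatatacctctatatTATTATAta
miR-206-3p match, chr15:81012498-81012504: aactctccactcacccACATTCCgt
miR-3103-3p match, chr15:81013244-81013250: gcgctagggaagggtcAGAGGTTgg
let-7j match, chr15:81012826-81012832: gtctgtatagatgtatATACCTCta
miR-188-5p match, chr15:81012361-81012368: ctgactcaatgcagagAAGGGATAg
miR-129b-3p match, chr15:81012992-81012999: aagttttttgcctaggTGGGCTTAt
miR-21a-5p match, chr15:81013117-81013123: actgtgggcagtgggcATAAGCTgt

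The match of miR-31-5p, CTTGCCA, is a 7mer-A1 in the last 7 bases of the annotated 3'UTR, and 8.23% of 10150 windows of the same length hold it. The windows are the first 1007 bases of the longest 3'UTR of each gene that is at least that long. Shares for the 7mer-m8 matches shown are 9.87% for TATTATA (miR-374b-5p), 7.41% for ACATTCC (miR-206-3p), 7.66% for AGAGGTT (miR-3103-3p), 4.18% for ATACCTC (let-7j) and 4.68% for ATAAGCT (miR-21a-5p). The median share of the 7mer-m8 match was 7.80% over the 137 names with a sequence, which hold 108 different seeds. The 8mer matches were those of miR-188-5p, not called at 0.52 ± 0.41 (with library totals -1.24, which passed), and miR-129b-3p, which was lower (-1.63 ± 0.48, limma adjusted p = 0.0113). Their bases 2 to 8 are matched by AAGGGAT in 6.46% and TGGGCTT in 9.97% of windows. The match of let-7j takes in base 8, where its sequence differs from that of let-7i-5p. A match is a description of letters, not of a site in use.

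Names with a match were higher in 15 of 22 cases (68.2%), lower in 3 (13.6%) and not called in 4, with a median of 2.98, or 2.28 with names without reads in a group at their bound. The 115 names with a sequence and no match were higher in 46 (40.0%), lower in 19 (16.5%) and not called in 50, with a median of 1.04, or 0.33 at the bounds. No test was made of this difference, and nothing is read from it. Names with 0 reads in a group could be called 1 way only. Among those with a match, miR-871-3p had 75 bait and 0 control reads, and miR-128-3p had 0 bait and 2 control reads. The split was not counted with library totals, under which miR-27b-3p changed sign, at -0.74. Both arms of miR-296 are among the higher names. The 16 names with an 8mer or 7mer-m8 held 10 higher and 2 lower, and the 6 with a 7mer-A1 alone 5 higher and 1 lower. Matches of higher names included those of miR-324-3p (GGCAGTG, 10.2% of windows), where 170 bait reads met 3 control reads, all in MS2 library C. Bait over control was 34.6 (95% counting interval 11.6 to 169), and 16.5 without MS2 library B. Another was that of miR-149-5p (GAGCCAG, 12.4% of windows) at 3.46 ± 0.29. miR-27a-3p and miR-27b-3p share the match ACTGTGA (12.7% of windows), and the former was not called (0.90 ± 0.38, with library totals -0.96) except without bait library A (adjusted p = 0.0414). The 3 lower names with a match were miR-21a-5p, miR-129b-3p and miR-6396. The letters that would match the seeds of let-7, miR-34 and miR-449, miR-130 and miR-301, and miR-199a-5p were not in this window.

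The higher and lower names had the same median length, 22 bases. The median content of G and C was 47.8% in the 61 higher names with a sequence, 50.0% in the 54 not called and 56.1% in the 22 lower. Base 1 was U in 47.5%, 44.4% and 22.7% of these. Across 169 names the log2 difference had a Pearson r of -0.12 with the input level, and across 137 of -0.17 with the content of G and C. Mean log2 levels of bait and input had r = 0.52, and those of control and input r = 0.68. Names are not independent replicates, and all these points share the same libraries.

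Part of the higher names were nearly absent from the input. Of 22 tested names with under 10 input reads in all, 13 were higher and 5 lower (background 43.2% and 17.2%), but such names could pass the filter only through eluates in which they were high, so nothing is read from the count. miR-504-3p had 15, 66 and 22 bait reads, none in the control and 1 in the input, a bound of 5.33-fold over the control. miR-568 had 14, 21 and 15 bait reads, 0 control reads and 0 input reads. Its bound of 2.92-fold rests on the effective sizes and may not hold with library totals. miR-7649-3p had 369 bait reads, 1 control read and 1 input read.

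The calls were compared with those of other scalings and tests. Of the 102 names, 83 were called the same way with library totals, RLE factors, TMM factors of the eluates or of the undifferentiated eluates, edgeR and DESeq2, 55 of them higher (32.5%) and 28 lower (16.6%). Leaving out each of the 6 libraries in turn, 85 names kept their call in every fit, 67 higher and 18 lower. The authors' deposited table listed 119 names at a false discovery rate under 0.05 (5.83% of 2042), 92 higher and 27 lower. Of these 91 were also called here with the same sign, which is 76.5% of their list and 89.2% of the calls here, 26 were not tested here and none had the opposite sign.

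The bait difference in myoblasts was set against that in differentiated cells by the interaction in the same fit, which called 22 of 169 names (13.0%), 14 with a larger value in differentiated cells (8.28%) and 8 with a smaller one (4.73%). In 12 of the 22 at least 1 of the 4 groups of eluates had 0 reads, so the size of their fitted change rests on the pseudocount and their counts do not fix its direction. The other 10 had reads in all groups, 8 with a larger value in differentiated cells and 2 with a smaller one. miR-31-5p was at 8.77 in myoblasts and 6.41 in differentiated cells, a change of -2.35 ± 0.58 (limma adjusted p = 0.0235). miR-690 went from -2.34 to -5.14, on 10 bait and 35 control reads in myoblasts and 47 and 227 after differentiation (-2.80 ± 0.65, limma adjusted p = 0.0224). The largest change the other way among the 10 was that of miR-1a-3p, from 1.22 to 6.63 (5.41 ± 0.99, limma adjusted p = 0.00761). miR-31-5p thus remained far above the control in both states, while miR-1a-3p was called in differentiated cells alone and its change between states passed the test.

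Most names described above were not called in this contrast. miR-615-3p changed by 0.08 ± 0.64 (limma adjusted p = 0.974) and let-7g-5p by -0.05 ± 0.80 (limma adjusted p = 0.988). For miR-34c-5p the change was -1.36 ± 0.53 (limma adjusted p = 0.101). let-7e-5p (1.72 ± 0.50) and let-7d-5p (1.95 ± 0.46) were larger in differentiated cells, the latter at 0.68 in myoblasts and 2.63 after differentiation. edgeR called 0 names in this contrast, with 40 at an unadjusted p under 0.05, and DESeq2 called 14. Without differentiated bait library B the number was 6, and without C it was 14.

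**Figure D5:**
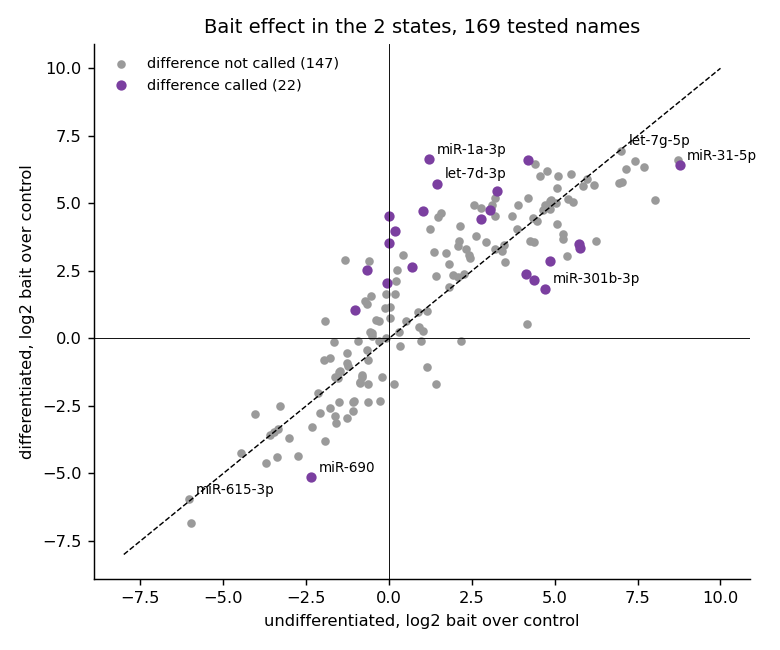
Log2 difference of bait over control in undifferentiated (horizontal) and differentiated (vertical) cells for the 169 tested names, with the line of equal difference. Purple marks the 22 names whose difference changed between the states in the interaction test, 12 of them with 0 reads in a group, and among the others miR-31-5p below the line and miR-1a-3p above it.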

How the data were processed

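The submitters' processing notes name edgeR 3.18.1, featureCounts 1.4.6, Bowtie2 2.0.13 and cutadapt 1.4.2, and the build GRCm38/mm10. How strand and reads matching several names were treated is not given in the sources used here. Each value of the deposited signal is a normalised CPM made by the authors. Its values were whole multiples of a step in each library, so whole reads were recovered (100% within 0.01 read), and the effective sizes equal TMM sizes over all 18 libraries. The log2 fold changes and p-values of the authors' deposited table, per the file headers, were used only for counts of shared calls.

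limma 3.58.1 with a trend (R 4.3.3) was fitted to log2(CPM + 10), 10 being the pseudocount, over the 12 eluates in 4 groups. Names were kept by filterByExpr on recovered reads, and Benjamini-Hochberg adjustment ran over the 169 names (threshold 0.05). Alternatives were DESeq2 1.42.0 and edgeR 4.0.16, both on the recovered reads, other scalings, pseudocounts of 2 and 50, no filter, a filter of at least 10 reads in 3 libraries, the 6 eluates alone, a replicate block on the column suffix, and leaving out each library. With 1 to 3 reads in a group a ratio has an exact 95% binomial interval, and with 0 reads a fold is a bound from 3 reads per library. Both use the effective sizes. No 2 libraries of a group were as alike as sampling noise alone would make them.

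The members and lists were chosen with earlier results of these data known. Names given were drawn from the 18 largest rises and 12 largest falls among calls without overlap whose higher group had a mean of 50 CPM or more, the 5 most abundant of each group, seed families of the 10 largest rises, other arms, list examples, the 5 largest interaction changes each way, and names with a seed match. Not every name under these rules is described. Other names, as miR-181a-5p, miR-181d-5p, miR-190b-5p, miR-27a-5p, miR-130a-3p, miR-301a-3p, miR-99b-5p, miR-100-5p, miR-181b-5p, miR-190a-5p, miR-504-3p, miR-568 and miR-3107-5p, were chosen after their values were seen. Tables, matches and figures were made with matplotlib 3.10.9, scipy 1.17.1, pandas 2.3.3 and numpy 2.4.6 under Python 3.11.15.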

Additional observations from a re-analysis of the deposited data

Results flagged for a closer look

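These names are listed because their difference between bait and control changed between undifferentiated and differentiated cells by the interaction test in limma. Values are log2, differentiated minus undifferentiated. Smaller in differentiated cells, with reads in every group, were miR-31-5p (-2.35) and miR-690 (-2.80), the latter a fall further below the control. The fitted values were also negative for miR-3074-5p (-2.42), miR-449a-5p (-2.22), miR-301b-3p (-2.87) and miR-466p-3p (-2.23), but these had 0 control reads in myoblasts, so neither the size nor the sign of the change is fixed. Their bait reads in myoblasts were 139, 142, 76 and 57. After differentiation bait and control reads were 440 and 5 for miR-3074-5p, 81 and 0 for miR-449a-5p, 62 and 2 for miR-301b-3p, and 25 and 0 for miR-466p-3p. miR-3074-5p lies opposite miR-24-3p on the other strand, and how reads of overlapping names were assigned is not given in the sources used here.

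Larger in differentiated cells, with reads in every group, were miR-1a-3p (5.41), let-7d-3p (4.27), miR-1839-5p (3.78), let-7d-5p (1.95) and let-7e-5p (1.72). let-7d-3p had 8 control reads in myoblasts and 2 after differentiation, and miR-1839-5p had 3 and 1. The fitted values were also positive for miR-1b-5p (4.52), miR-378c (3.69), miR-296-5p (2.41) and let-7f-2-3p (1.65). For these likewise neither the size nor the sign of the change is fixed, as a group had 0 reads. miR-1b-5p had 0 reads in the 6 undifferentiated eluates and 3552 bait and 20 control reads after differentiation. miR-378c had 5 undifferentiated reads in all, each in bait library A, and 185 bait and 0 control reads after differentiation. let-7f-2-3p had 15 and then 147 bait reads and no control read. miR-296-5p had 196 bait and 4 control reads in myoblasts and 687 and 0 after differentiation.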

How the results depend on the processing

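The total of 102 calls ranged from 84 to 131 over the other settings and from 93 to 100 with 1 library left out, and the 73 higher names from 55 to 108 and 69 to 76. The 29 lower names numbered 63 with library totals, 18 with the stricter filter and 19 with a filter on the 6 undifferentiated eluates, chosen after seeing the data, and 21 to 29 with 1 library left out. The filters test fewer names, 122, and for library totals the cause was not tested. With RLE factors the split was 71 to 38, with TMM factors of the eluates 72 to 37, and with no filter 108 to 23 of 839 names tested.

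The interaction called 22 names, but 14 with library totals, 11 with a pseudocount of 2, 38 with 50, 2 with no filter among 1151 names tested, 14 with DESeq2, 0 with edgeR (40 at an unadjusted p under 0.05), and 6 to 25 with 1 library left out, the cause not being tested.

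With library totals let-7d-5p (-1.21), let-7d-3p (-0.14), miR-1839-5p (-1.10), miR-27b-3p (-0.74), miR-27a-3p (-0.96), miR-188-5p (-1.24), miR-25-3p (-0.91), miR-221-3p (-1.49) and miR-29a-3p (-0.55) changed sign, and so did miR-221-3p with DESeq2 (-0.31). Without a library, signs changed for miR-1839-5p (range -0.37 to 0.51, with -0.06 among them), miR-221-3p (-0.21 to 1.08) and miR-133a-3p (-1.55 to 0.079), the cause not being tested. Over all alternatives for the 97 named miRNAs, 1670 values kept sign and side of the threshold, 64 lost the call, 55 gained it and 14 changed sign.

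The planned block on the titles' replicate numbers was not run, because the labels do not tie the column suffixes to those numbers. A replicate block on the column suffix, chosen after seeing the data, called 104 names, 75 higher and 29 lower, and 18 in the interaction. Deviations of bait and control libraries with the same suffix correlated at 0.17 (A), 0.11 (B) and 0.063 (C) over 169 names in myoblasts, and each of the 6 correlated best with its own suffix, which is a hint from the data and not from the design. Depth limits the control most, where 1 read was worth up to 32.8 CPM, so bounds and ratios were used for named miRNAs with 0 to 3 reads in the bait against control comparison, while the interaction has fitted values only.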

Other observations

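The 23 tested mouse names with the highest numbers, from miR-5099 to miR-7667-5p, held 5 higher, 7 lower and 11 not called names, with a median of -0.67, against 1.16 over all tested names (background 43.2% higher and 17.2% lower). With library totals 13 were lower, with a median of -2.49. The proliferation list, of which miR-31-5p is a member, held 1 higher, 1 lower and 2 not called among 4 tested names, with a median of -0.24, or -2.09 with library totals. miR-222-3p, a miRNA that restrains muscle differentiation, was at 981, 1238 and 1084 CPM with the bait and at 1444, 1318 and 3821 with the control (-0.82 ± 0.43, limma adjusted p = 0.114). Control library C stood above the other control libraries for it.

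Neural miR-128-3p had 2 seed matches in the annotated Mrtfa 3'UTR, CACTGTG (15.0% of windows) and ACTGTGA (12.7% of windows). The latter lies at the same bases as the match of miR-27a-3p and miR-27b-3p. miR-128-3p had 0 bait and 2 control reads in the undifferentiated eluates, against 305 ± 91.7 CPM (SD, n = 3) in the input. At this depth no difference between bait and control was detectable for it (limma adjusted p = 0.368).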
